A study of Mus musculus with 18 samples.

Results

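Entpd1, Nt5e, Cd38, Bst1 and Adora2a, genes of extracellular adenosine and NAD metabolism, were followed across all groups of an RNA sequencing series on the nuclear receptor NR4A1 in mouse CD8+ T cells. They were picked by gene symbol, for what their products do, with earlier results of these data known. All 5 were present in each of the 3 deposited tables, out of 10800 symbols shared by the 3 tables and 19549 found in any of them. The series held 18 libraries in 8 groups.

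OT-I cells, CD8+ T cells with a transgenic receptor for an ovalbumin peptide, were isolated from tumours at day 21 in mice. They were sorted as Nr4a1RFP+ (2 libraries, genotype WT, sorted by RFP, a red fluorescent protein) or as Tim-3+ (2 libraries, genotype WT). Other tumour-infiltrating OT-I cells were sorted for Ly108, the product of Slamf6, with the genotype Nr4a1 KO (Nr4a1-/-, 3 libraries) or Nr4a1 WT (Nr4a1+/+, 3 libraries). For these no day is given separately. CD8+ T cells in culture had been infected with virus carrying Nr4a1 (Nr4a1-OV, 2 libraries) or, as their control, with the virus RV-GFP (2 libraries). Naive CD8+ T cells labelled Nr4a1 KO (2 libraries) or Nr4a1 WT (2 libraries) were activated on plates coated with antibodies to CD3 and CD28, used at 2 µg/mL. All 8 cultured libraries came from cells given PMA and ionomycin for 2 h before harvest. The tumour cells therefore share 1 antigen receptor specificity, the Nr4a1-OV cells carry a forced, virus-driven transcript, and the sources used here give neither the age of the mice nor the tumour line.

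The 2 ectoenzymes of the adenosine branch act in sequence on the cell surface. ENTPD1 (CD39) hydrolyses extracellular ATP and ADP to AMP, and NT5E (CD73) dephosphorylates AMP to adenosine. ADORA2A, the A2A receptor, binds adenosine, couples to stimulatory G proteins and raises cyclic AMP, which dampens T cell receptor signalling. In the NAD branch, CD38 and its relative BST1 (CD157) cleave extracellular NAD and form cyclic ADP-ribose, a messenger that releases calcium through ryanodine receptors. ENTPD1 and CD38 are widely used as surface markers of terminally exhausted CD8+ T cells in tumours.

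The genes lie on 4 chromosomes of GRCm38 in the GENCODE M21 annotation, all on the plus strand and all protein-coding. Entpd1 spans chr19:40612366-40741602, Nt5e chr9:88327197-88372092 and Adora2a chr10:75316877-75334784. Bst1 (chr5:43818885-43843986) and Cd38 (chr5:43868553-43912375) are next to each other, with Bst1 upstream. RefSeq promoter windows on GRCm38.p6, each 300 bases long with 250 before the transcript start and 50 after, matched 3 of the 5 genes. There were 4 such windows, with 2 alternative starts for Entpd1. In the 250 bases before the start, Nt5e had 21 CpG dinucleotides and a GC content of 72.0%, the 2 Entpd1 starts had 18 and 8 CpG with 62.4% and 47.2% GC, and Cd38 had 1 CpG with 48.8% GC. The median over 32851 mouse promoter windows was 6 CpG and 52.4% GC. The stretch before the downstream Entpd1 start, at chr19:40659520-40659769 on the plus strand, is shown because Entpd1 had the widest range of levels of the 5 genes, and because this window, alone among the 4, overlaps no GENCODE exon. Its CpG dinucleotides are in capitals.
Entpd1 downstream start: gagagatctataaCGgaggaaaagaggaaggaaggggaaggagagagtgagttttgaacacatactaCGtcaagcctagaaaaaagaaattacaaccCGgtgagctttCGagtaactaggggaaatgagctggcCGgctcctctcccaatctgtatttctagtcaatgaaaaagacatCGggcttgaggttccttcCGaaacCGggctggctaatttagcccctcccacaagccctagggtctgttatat
The octamer AAAGGTCA (reverse complement TGACCTTT), which NR4A1 is known to bind as a monomer, was searched on both strands in the full 300-base windows. It was in none of the 4 windows of these genes and in 1.51% of all promoter windows. The absence says only that these letters are not in these windows.

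The labels were first checked against marker genes. Nr4a1 itself stood at 1513 and 1447 RPKM (reads scaled to gene length and library size) in Nr4a1-OV and at 565 and 624 RPKM in RV-GFP. It was not higher in the cells sorted as Nr4a1RFP+, at 113 and 115 RPKM, than in Tim-3+ cells, at 132 and 125 RPKM. In the libraries labelled KO it was not lower: 103 and 103 RPKM in cultured KO against 82.7 and 96.3 RPKM in cultured WT, and 112, 101 and 102 RPKM in Ly108+ KO against 53.9, 46.4 and 45.0 RPKM in Ly108+ WT. The sources used here do not name the exons that the deletion removes, so a gene-level value does not check these labels, and every direction below for KO refers to the libraries labelled KO. The 5 T cell markers (Cd3d, Cd3e, Cd3g, Cd8a and Cd8b1) summed to 748 to 2316 RPKM over the 18 libraries. Slamf6 was at 14.2 to 15.9 RPKM in Ly108+ KO and 15 to 15.8 RPKM in Ly108+ WT, and Havcr2, which encodes Tim-3, was at 18.4 and 13 RPKM in Nr4a1RFP+ against 215 and 236 RPKM in Tim-3+. Tcf7, a transcription factor of stem-like T cells, was at 102 and 104 RPKM in Nr4a1RFP+ and 5.45 and 2.70 RPKM in Tim-3+. The cultured libraries held 16.8 to 17.1 M counts, and the tumour libraries, from recovered reads, 15.2 to 24.1 M. No label ties a replicate to an animal or a culture of its own, so p-values measure only the spread between these libraries. In bulk RNA, fewer cells of a type and less RNA per cell cannot be told apart.

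**Figure D1:**
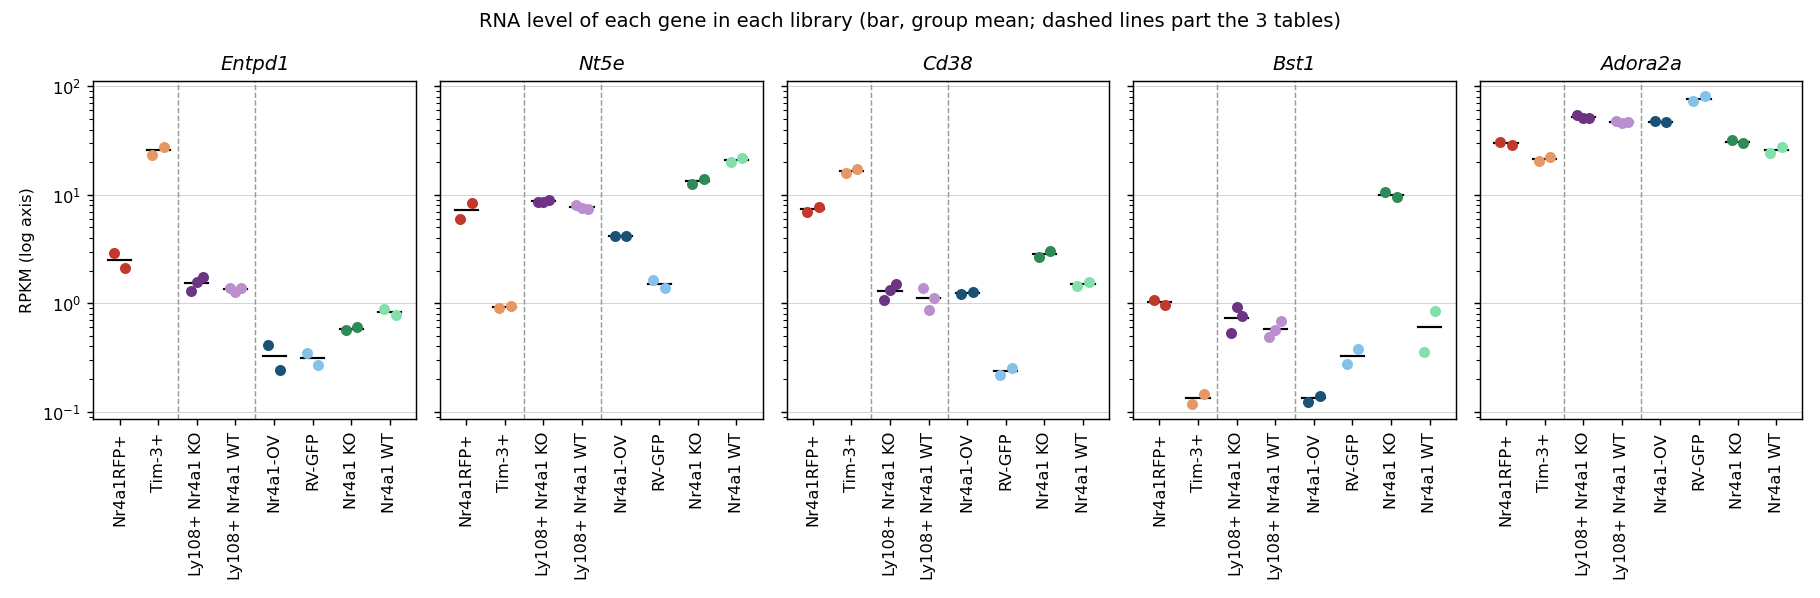
RNA level in RPKM, on a log axis, of Entpd1, Nt5e, Cd38, Bst1 and Adora2a in each of the 18 libraries (points) of the 8 groups, with group means as bars. Dashed lines part the 3 tables, which were normalised separately. Adora2a stays within 20.4 to 80.9 RPKM, while Entpd1 in Tim-3+ cells and Bst1 in cultured KO cells stand above all their other groups.

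Adora2a was the most evenly expressed of the 5 genes. Its group means, between 21.2 RPKM (Tim-3+) and 76.7 RPKM (RV-GFP), spanned 3.61-fold. The means of the 4 enzymes spanned 22.9-fold (Nt5e), 70.6-fold (Cd38), 76.0-fold (Bst1) and 82.7-fold (Entpd1). These spans cross the 3 tables and are a description only. RPKM is scaled to gene length, so levels can be set between genes within a library: Adora2a was above each of the 4 enzymes in every library except the Tim-3+ ones, where Entpd1 was above it.

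Among tumour-infiltrating cells of genotype WT, Nr4a1RFP+ and Tim-3+ cells had opposite adenosine enzymes. Entpd1 was lower in Nr4a1RFP+ cells and Nt5e was higher, Cd38 was lower and Adora2a slightly higher. Of the 4 members tested, 2 were higher and 2 lower, where 9.08% of the 9508 genes tested were higher and 8.61% lower (17.7% in all; limma on log2 of RPKM plus 1, adjusted p under 0.05). For all 5 genes the libraries of the groups did not overlap, which was so for 61.2% of genes tested. Each library bore on the count of 1682 genes: it was 928 or 723 without the first or second Nr4a1RFP+ library, and 3037 or 3421 without the first or second Tim-3+ library.

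Entpd1 was at 2.88 and 2.11 RPKM in Nr4a1RFP+ libraries, against 23.4 and 27.9 RPKM in Tim-3+ libraries. Both Tim-3+ libraries were the highest of all 18. The log2 fold change was -2.93 (SE 0.15, limma adjusted p = 8.72e-05). Nt5e went the other way, with 5.98 and 8.42 RPKM in Nr4a1RFP+ and 0.909 and 0.934 RPKM in Tim-3+. Its log2 fold change was 2.08 (SE 0.16, limma adjusted p = 0.000285). It passed the filter of 1 RPKM through the Nr4a1RFP+ libraries alone.

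Cd38 was at 6.92 and 7.73 RPKM in Nr4a1RFP+ cells and 15.9 and 17.3 RPKM in Tim-3+ cells. It fell by 1.08 on the log2 scale (SE 0.11, limma adjusted p = 0.00106), yet both populations were above every other group of the series in Cd38 RPKM. Bst1 was low in both, at 1.07 and 0.973 RPKM in Nr4a1RFP+ and 0.118 and 0.147 RPKM in Tim-3+, and stayed below the filter. Its difference on the log2(RPKM + 1) scale was 0.84 and was not part of the main test; with no filter the limma adjusted p was 0.00211, and edgeR on recovered reads gave a log2 fold change of 2.90. Adora2a was at 30.9 and 28.6 RPKM in Nr4a1RFP+ and 20.4 and 22.1 RPKM in Tim-3+, a log2 fold change of 0.47 (SE 0.11, limma adjusted p = 0.0291). That call was lost when either Nr4a1RFP+ library was left out (limma adjusted p = 0.297 without the first, 0.202 without the second). These folds are on the log2(RPKM + 1) scale, which understates the change of genes near 1 RPKM. Marker lists of other cells also differed. The CD4 and regulatory T cell list summed to 20.6 to 25.1 RPKM in Nr4a1RFP+ and 8.39 to 8.86 RPKM in Tim-3+, most of it Ikzf2. The stromal, endothelial and tumour list summed to 14.5 to 14.8 RPKM in Nr4a1RFP+ and 7.26 to 7.61 RPKM in Tim-3+, most of it Pecam1. The erythroid list ranged from 1.64 to 59.6 RPKM between the Nr4a1RFP+ libraries and from 20.4 to 30.2 RPKM between the Tim-3+ libraries. The NK and innate lymphocyte list (4 of 5 genes in the table) summed to 28.2 to 34.4 RPKM in Nr4a1RFP+ and 49.9 to 60.2 RPKM in Tim-3+, which rested on Fcer1g (4.05 RPKM in Nr4a1RFP+, 34.3 RPKM in Tim-3+), while Eomes went the other way (25.9 RPKM in Nr4a1RFP+, 18.7 RPKM in Tim-3+). The myeloid list (8 of 9 genes in the table) summed to 46.1 to 55.1 RPKM in Nr4a1RFP+ and 25 to 26.9 RPKM in Tim-3+. That sum was carried by Cd68 (42.6 RPKM in Nr4a1RFP+, 14.1 RPKM in Tim-3+), while Cd14 (2.69 RPKM in Nr4a1RFP+, 4.81 RPKM in Tim-3+), Tyrobp (0.858 RPKM in Nr4a1RFP+, 2.82 RPKM in Tim-3+) and Itgam (0.0524 RPKM in Nr4a1RFP+, 0.731 RPKM in Tim-3+) were lower in Nr4a1RFP+. The part of such cells in the differences of the 5 genes was not tested.

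Set against each other, the 2 adenosine enzymes changed their order between these populations. Nt5e RPKM per Entpd1 RPKM, a ratio chosen after the values had been seen, was 2.08 and 3.99 in Nr4a1RFP+ libraries and 0.0388 and 0.0335 in Tim-3+ libraries. Tim-3+ was the single group of the 8 in which Entpd1 exceeded Nt5e. In the other 6 groups the ratio lay between 4.67 and 28.3.

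**Figure D2:**
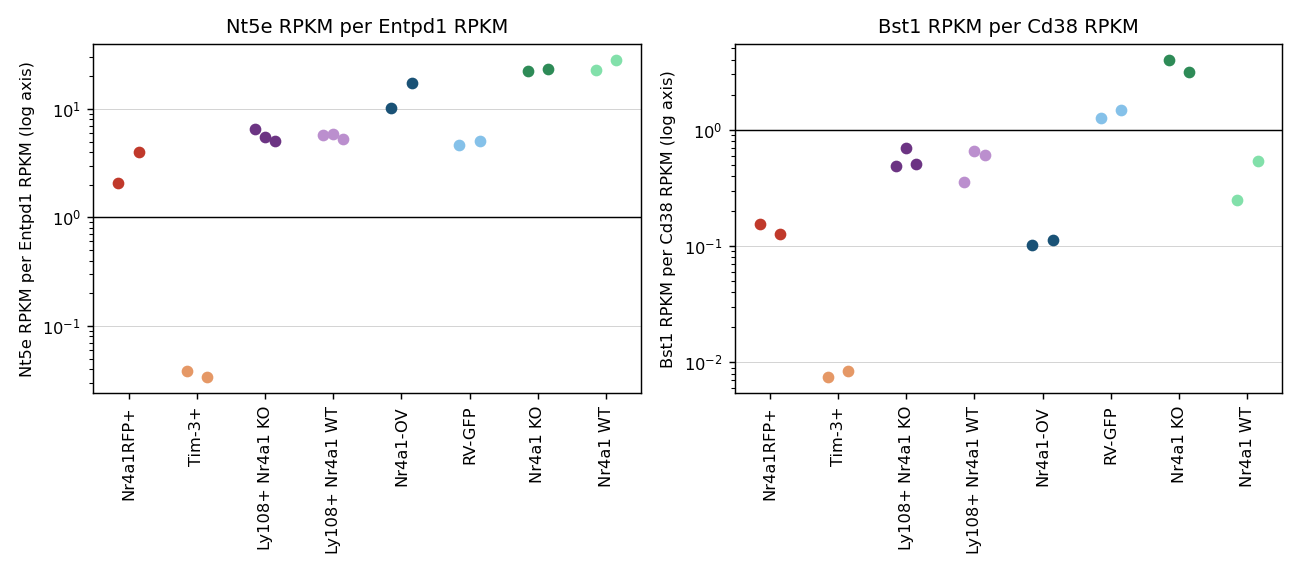
Nt5e RPKM per Entpd1 RPKM (left) and Bst1 RPKM per Cd38 RPKM (right) in each library (points), by group, on log axes. The black line marks equal RPKM. The Tim-3+ libraries are the ones below it on the left, at 0.0388 and 0.0335, and the cultured KO and RV-GFP libraries are the ones above it on the right.

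In Ly108+ tumour cells none of the 4 members tested passed the threshold between Nr4a1 KO and Nr4a1 WT, where 4.45% of 11265 genes did (501 genes; 2.04% higher and 2.41% lower). Nt5e was at 8.60, 8.61 and 8.92 RPKM in Ly108+ KO libraries and 8.0, 7.57 and 7.40 RPKM in Ly108+ WT libraries. Every KO library was above every WT library, but the log2 fold change was 0.17 (SE 0.06, limma adjusted p = 0.132). Adora2a was at 54.9, 51.5 and 51.6 RPKM in Ly108+ KO and 47.6, 46.0 and 47.5 RPKM in Ly108+ WT, also without overlap, with a log2 fold change of 0.16 (SE 0.04, limma adjusted p = 0.0863). Such separation was found for 29.4% of genes tested.

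Entpd1 (1.31, 1.56 and 1.76 RPKM in Ly108+ KO against 1.39, 1.28 and 1.39 RPKM in Ly108+ WT) and Cd38 (1.07, 1.31 and 1.5 RPKM in Ly108+ KO against 1.37, 0.866 and 1.12 RPKM in Ly108+ WT) overlapped between genotypes. Their limma adjusted p-values were 0.512 and 0.587. Bst1 was under the filter, with 0.526, 0.919 and 0.770 RPKM in Ly108+ KO and 0.490, 0.567 and 0.679 RPKM in Ly108+ WT. The number of genes past the threshold in this comparison moved by more than 1.5 times with each library left out. It was 1686, 99 and 120 without KO libraries 1, 2 and 3, and 152, 72 and 69 without WT libraries 1, 2 and 3. No member passed in any of these 6 fits. The 9 myeloid markers, all in the table, summed to 99.2 to 134 RPKM in Ly108+ KO and 66.9 to 80.0 RPKM in Ly108+ WT. Lyz2 made up most of this, at 81.0 RPKM in Ly108+ KO and 45.7 RPKM in Ly108+ WT, and Cd14, Tyrobp and Cd68 were also higher in KO, while S100a8 and S100a9 were not. The stromal, endothelial and tumour list (4 of 8 genes in the table) summed to 51.8 to 57.9 RPKM in Ly108+ KO and 49.3 to 49.9 RPKM in Ly108+ WT. Most of it was Pecam1 (23.6 RPKM in Ly108+ KO, 22.6 RPKM in Ly108+ WT) and Pmel (23.3 RPKM in Ly108+ KO, 24.7 RPKM in Ly108+ WT). Col1a1 averaged 4.70 RPKM in Ly108+ KO and 1.35 RPKM in Ly108+ WT, and Col1a2 averaged 2.49 RPKM in Ly108+ KO and 1.0 RPKM in Ly108+ WT. The part of such cells in the values above was not tested.

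In culture, Nr4a1-OV cells had more Nt5e and Cd38 RNA than RV-GFP cells and less Bst1 and Adora2a. Of the 5 genes, 2 were higher and 2 lower, but 60.9% of the 14994 genes tested passed the threshold in this comparison (31.3% higher, 29.6% lower; edgeR quasi-likelihood test), so a call by itself does not set these genes apart. The libraries did not overlap for 4 of the 5, and for 79.6% of all genes tested.

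Cd38 had 81 and 84 reads in Nr4a1-OV libraries and 13 and 15 reads in RV-GFP libraries, or 1.22 and 1.26 RPKM against 0.218 and 0.253 RPKM. It was 5.25-fold higher (log2 fold change 2.39, SE 0.24, edgeR adjusted p = 1.85e-08), against the lowest group level of Cd38 in the series. Nt5e had 612 and 611 reads in Nr4a1-OV and 216 and 180 reads in RV-GFP, a 2.77-fold rise (log2 fold change 1.47, SE 0.10, edgeR adjusted p = 3.94e-11). Entpd1, the enzyme upstream of it, had 39 and 23 reads in Nr4a1-OV against 30 and 23 reads in RV-GFP. With so few reads its log2 fold change of 0.07 (SE 0.29, edgeR adjusted p = 0.851) had no stable sign: it was -0.36 without the first Nr4a1-OV library.

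Adora2a was abundant in both arms, at 47.8 and 46.9 RPKM in Nr4a1-OV and 72.6 and 80.9 RPKM in RV-GFP, and fell by 0.69 on the log2 scale (SE 0.06, edgeR adjusted p = 4.21e-09). Bst1 had few reads, with 7 and 8 reads in Nr4a1-OV and 14 and 19 reads in RV-GFP. Its log2 fold change of -1.28 (SE 0.50, edgeR adjusted p = 0.0334) did not pass without the first or second Nr4a1-OV library or the second RV-GFP library (edgeR adjusted p 0.110, 0.0732 and 0.169). Foxp3, the regulatory T cell factor, averaged 55.9 RPKM in Nr4a1-OV and 0.699 RPKM in RV-GFP, and Ikzf2 averaged 14.7 RPKM in Nr4a1-OV and 1.72 RPKM in RV-GFP. Cd40lg went the other way (5.54 RPKM in Nr4a1-OV, 37.4 RPKM in RV-GFP), and Cd4 was near 0 in both (0.123 RPKM in Nr4a1-OV, 0.138 RPKM in RV-GFP). The CD4 and regulatory T cell list of 5 genes summed to 79.8 to 80.2 RPKM in Nr4a1-OV and to 41.8 RPKM in each RV-GFP library, and its part in the rise of Nt5e and Cd38 was not tested.

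Between cultured Nr4a1 KO and Nr4a1 WT cells, Bst1 changed most of the 5 genes. It had 605 and 553 reads in KO libraries and 21 and 51 reads in WT libraries, or 10.6 and 9.51 RPKM against 0.353 and 0.847 RPKM. The rise was 16.7-fold (log2 fold change 4.06, SE 0.18, edgeR adjusted p = 1.33e-13). The 2 WT libraries differed in their few Bst1 reads, and the log2 fold change was 3.57 without the first and 4.82 without the second. In all, 3 members rose and 1 fell, against 40.1% of 14994 genes past the threshold (18.4% higher, 21.6% lower). All 5 were separated between the groups, as were 69.0% of genes tested.

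Cd38, the neighbour of Bst1, had 178 and 206 reads in cultured KO and 100 and 112 reads in cultured WT, and rose 1.88-fold (log2 fold change 0.91, SE 0.14, edgeR adjusted p = 1.46e-05). Of the 6 other protein-coding genes within 250 kb of the pair in RefSeq, 1 had enough reads to be tested. This gene, Fbxl5, which encodes an iron-sensing ubiquitin ligase subunit, rose in KO with a log2 fold change of 0.95 (SE 0.07, edgeR adjusted p = 2.39e-10). The Bst1 to Cd38 ratio in RPKM, also chosen after the values were seen, was 3.99 and 3.15 in cultured KO and 0.246 and 0.534 in cultured WT. It was 0.101 and 0.112 in Nr4a1-OV and 1.26 and 1.49 in RV-GFP, so the order of the 2 NAD enzymes by RPKM differed within each culture pair. In RV-GFP the ratio rests on 14 and 19 Bst1 reads against 13 and 15 Cd38 reads, too few to settle the order there.

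Nt5e had 1874 and 2102 reads in cultured KO and 3100 and 3448 reads in cultured WT. It fell by 0.66 on the log2 scale (SE 0.06, edgeR adjusted p = 3.76e-08) and stayed above its level in both virus-infected groups. Entpd1 had 54 and 59 reads in cultured KO and 89 and 79 reads in cultured WT, separated but not past the threshold (log2 fold change -0.51, SE 0.21, edgeR adjusted p = 0.0528). When the 4 libraries were fitted on their own the adjusted p was 0.0475. Adora2a was at 31.7 and 30 RPKM in cultured KO and 24.5 and 27.6 RPKM in cultured WT (log2 fold change 0.25, SE 0.07, edgeR adjusted p = 0.00587), a call that was lost without the first WT library or the first KO library (edgeR adjusted p 0.10 and 0.0633).

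Markers of other cells moved both ways with the KO label in culture. The CD4 and regulatory T cell list of 5 genes summed to 16.0 to 17.1 RPKM in cultured KO and 21.6 to 23.4 RPKM in cultured WT. In it Foxp3, Ikzf2 and Cd40lg were lower in KO and Zbtb7b was higher. The stromal, endothelial and tumour list (5 of 8 genes in the table) summed to 12.7 to 13.2 RPKM in cultured KO and 19.9 to 22.6 RPKM in cultured WT, most of it Pecam1. The NK and innate lymphocyte list (3 of 5 genes in the table) summed to 60.0 to 66.0 RPKM in cultured KO and 21.0 to 21.7 RPKM in cultured WT, most of it Eomes, which activated CD8+ T cells also express. The myeloid list (4 of 9 genes in the table) summed to 12.7 to 13.4 RPKM in cultured KO and 4.53 to 4.89 RPKM in cultured WT. Almost all of that was Cd68, at 12.6 RPKM in KO and 4.47 RPKM in WT. Lyz2 averaged 0.197 RPKM in KO and 0.0423 RPKM in WT. The part of other cells in the rise of Bst1 and Cd38 was not tested.

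**Figure D3:**
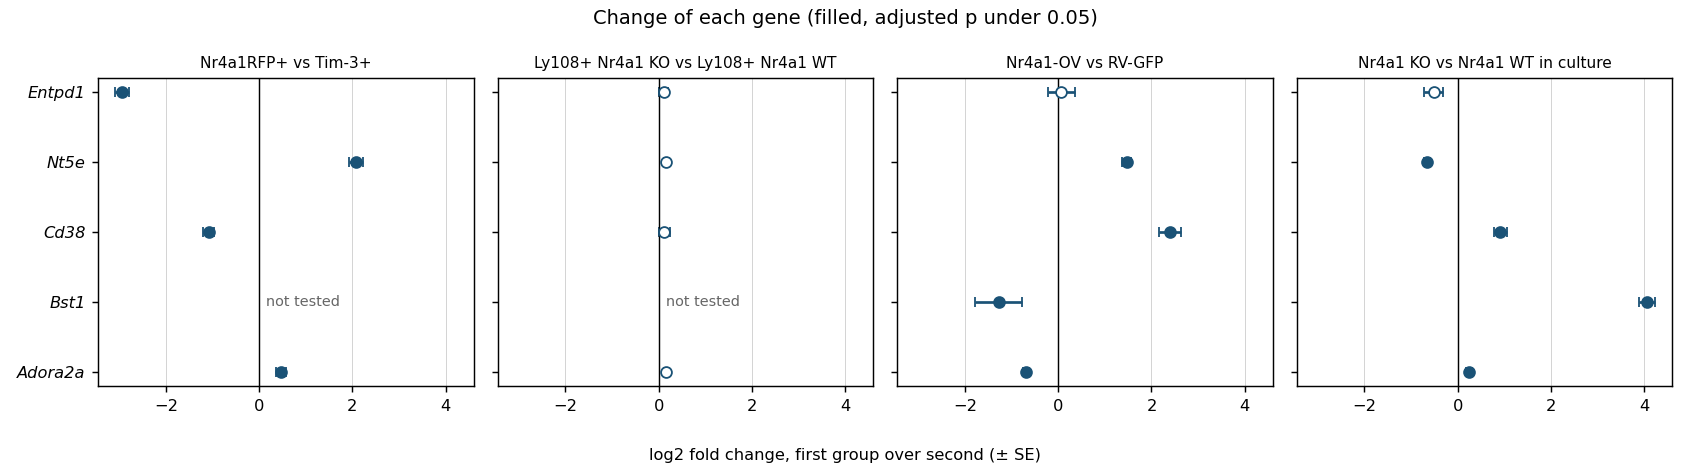
Log2 fold change (first group over second) of each of the 5 genes in 4 comparisons, with SE as bars; filled points passed an adjusted p of 0.05 over all genes tested. The first 2 panels are limma on log2(RPKM + 1) and the last 2 are edgeR on counts. Nt5e and Adora2a lie on opposite sides of 0 in the 2 culture panels, Cd38 lies above 0 in both, and Bst1 in KO against WT, at 4.06, is the farthest point.

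The 2 culture contrasts were set against each other in the same model. The Nr4a1-OV change (against RV-GFP) minus the KO change (against WT) was 2.13 for Nt5e (SE 0.12, edgeR adjusted p = 2.51e-12), -5.34 for Bst1 (SE 0.56, edgeR adjusted p = 5.77e-08) and -0.94 for Adora2a (SE 0.09, edgeR adjusted p = 1.89e-08). For these 3 genes the separate changes had opposite signs: Nt5e was higher with added Nr4a1 and lower with the KO label, and Bst1 and Adora2a were lower with added Nr4a1 and higher with the KO label. The difference test does not test the sign of either change. Bst1 in the virus pair rests on 7 and 8 reads in Nr4a1-OV against 14 and 19 reads in RV-GFP. Its call there, and that of Adora2a in KO against WT, were lost without some single libraries. Cd38 rose in both arms, and the 2 rises differed by 1.48 on the log2 scale (SE 0.29, edgeR adjusted p = 0.000165). For Entpd1 the difference was 0.58 (SE 0.36, edgeR adjusted p = 0.172). In this test 2 members were positive, 2 negative and 1 not called, and 55.8% of all genes passed (29.6% positive, 26.2% negative).

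The 2 control cultures also differed from each other, and not only in the 5 genes. Nr4a1 itself was at 565 and 624 RPKM in RV-GFP against 82.7 and 96.3 RPKM in cultured WT. RV-GFP and cultured WT cells differ in infection and may differ in how they were activated, and these cannot be told apart. Of the 5 genes 1 was higher in RV-GFP and 4 lower, and 71.0% of all genes passed (32.4% higher, 38.6% lower). The libraries did not overlap for 4 of the 5 and for 84.9% of all genes. Nt5e fell by 3.80 on the log2 scale in RV-GFP against WT (SE 0.09, edgeR adjusted p = 3.82e-19), Cd38 by 2.66 (SE 0.23, edgeR adjusted p = 8.67e-10) and Entpd1 by 1.41 (SE 0.24, edgeR adjusted p = 2.08e-05). Adora2a was higher in RV-GFP, at 235 ± 17.9 CPM (counts scaled to library size) against 79.8 ± 6.79 CPM in WT (SD, n = 2 each; log2 fold change 1.57, SE 0.07, edgeR adjusted p = 5.52e-15). For Bst1 the libraries overlapped, and its log2 fold change of -0.87 (edgeR adjusted p = 0.0320) was -0.12 without the second WT library.

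The order of the 4 cultures differed between genes, with Nt5e and Entpd1 sharing 1 order of means. Nt5e averaged 114 ± 7.86 CPM in KO and 181 ± 12.2 CPM in WT, and 35.8 ± 0.183 CPM in Nr4a1-OV and 12.9 ± 1.61 CPM in RV-GFP. Each neighbouring pair in its order of levels differed past the threshold. Adora2a ran the reverse way, with 145 ± 1.86 CPM in Nr4a1-OV and 235 ± 17.9 CPM in RV-GFP, and 94.5 ± 3.86 CPM in KO and 79.8 ± 6.79 CPM in WT. Cd38 was highest in KO (11.0 ± 1.0 CPM), and the next groups, Nr4a1-OV (4.83 ± 0.105 CPM) and WT (5.87 ± 0.422 CPM), did not differ past the threshold (log2 fold change -0.27, SE 0.16, edgeR adjusted p = 0.133; 66.3% of genes passed). Its level in RV-GFP was 0.915 ± 0.0964 CPM. Bst1 in KO (33.4 ± 2.53 CPM) stood above the other 3 cultures, which averaged 0.439 ± 0.0396 CPM (Nr4a1-OV), 1.08 ± 0.236 CPM (RV-GFP) and 1.99 ± 1.16 CPM (WT). Entpd1 was low throughout, with 3.25 ± 0.163 CPM in KO and 4.66 ± 0.430 CPM in WT, and 1.82 ± 0.669 CPM in Nr4a1-OV and 1.73 ± 0.316 CPM in RV-GFP. Neither of these pairs differed past the threshold. All CPM values here are mean ± SD of 2 libraries.

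The pairs across the 2 culture systems differ in infection, and may differ in activation, as well as in Nr4a1. In Nr4a1-OV against WT, 1 member was higher and 3 lower (66.3% of all genes called, 32.4% higher and 33.8% lower), with log2 fold changes of -2.15 for Bst1 and -1.34 for Entpd1. In Nr4a1-OV against KO, 1 was higher and 4 lower (66.5% of all genes called, 32.7% higher and 33.8% lower), and Bst1 had a log2 fold change of -6.21 (SE 0.24, edgeR adjusted p = 3.15e-15). In RV-GFP against KO, 1 was higher and 4 lower (69.6% of all genes called, 31.8% higher and 37.8% lower), and the log2 fold change of Cd38 was -3.58 (SE 0.20, edgeR adjusted p = 1.45e-12). Adora2a was the member that was higher in each of these 3 pairs. The libraries of all 5 genes were separated in each pair, as were 82.1%, 82.9% and 83.4% of all genes.

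The other genes of these pathways were counted from 5 lists of 102 genes in all. Between Nr4a1RFP+ and Tim-3+ cells, 11 of 59 tested were higher and 6 lower (28.8% called), beside 9.08% higher, 8.61% lower and 17.7% called over all genes. In ATP and adenosine handling, 5 of 20 were higher and 4 lower. Adk, adenosine kinase, which removes intracellular adenosine by phosphorylation, averaged 6.61 ± 0.0677 RPKM in Nr4a1RFP+ and 2.24 ± 0.0204 RPKM in Tim-3+ (log2 fold change 1.23, limma adjusted p = 0.000464). Ada, adenosine deaminase, averaged 1.60 ± 0.144 RPKM in Nr4a1RFP+ and 3.11 ± 0.123 RPKM in Tim-3+ (log2 fold change -0.66, limma adjusted p = 0.00708). Slc29a1, the equilibrative nucleoside transporter ENT1, rose by 0.74, and Enpp5, a member of the ectonucleotide pyrophosphatase family, fell by 1.17 on the log2 scale.

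In the receptor list 2 of 3 tested were higher in Nr4a1RFP+ cells and none lower. They were the ATP-gated channel P2rx4 (3.35 ± 0.0404 RPKM in Nr4a1RFP+, 0.732 ± 0.0425 RPKM in Tim-3+, limma adjusted p = 0.000337) and P2ry10, which despite its name is known as a lysophosphatidylserine receptor. In NAD synthesis and consumption 4 of 22 were higher and 1 lower. Art3, of the ADP-ribosyltransferase family, averaged 4.90 ± 0.886 RPKM in Nr4a1RFP+ and 0.0381 ± 0.0164 RPKM in Tim-3+. Parp3 rose by 1.09, and Art2b, the T cell ecto-ADP-ribosyltransferase that uses extracellular NAD, fell by 0.88 on the log2 scale. In cyclic AMP signalling 1 of 13 passed, the phosphodiesterase Pde4a, which was lower (0.990 ± 0.0973 RPKM in Nr4a1RFP+, 2.04 ± 0.00955 RPKM in Tim-3+). The single calcium channel tested did not pass. P2rx4 and Art3 passed the filter of 1 RPKM through the Nr4a1RFP+ libraries alone, and Enpp5 through the Tim-3+ libraries alone.

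In Ly108+ cells 1 of 58 listed genes was higher in KO and 1 lower (3.45% called), which is no more than the 4.45% called over all genes. Pnp, purine nucleoside phosphorylase, averaged 5.11 ± 0.287 RPKM in Ly108+ KO and 3.80 ± 0.206 RPKM in Ly108+ WT (n = 3 each, limma adjusted p = 0.0410). Pde4d, which breaks down cyclic AMP, averaged 34.3 ± 0.204 RPKM in Ly108+ KO and 39.5 ± 1.16 RPKM in Ly108+ WT (n = 3 each, limma adjusted p = 0.0474).

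Between Nr4a1-OV and RV-GFP, 32 of 77 listed genes were higher and 20 lower (67.5% called), near the 60.9% called over all genes (31.3% higher, 29.6% lower), against which the counts of the single lists are also to be read. In cyclic AMP signalling downstream of the A2A receptor, 9 of 16 were higher and 1 lower. Adcy6, an adenylyl cyclase, had the highest change of those named, with 151 ± 9.74 CPM in Nr4a1-OV and 10.7 ± 0.139 CPM in RV-GFP (log2 fold change 3.83, edgeR adjusted p = 4.25e-19). Crem, a transcription factor of the cyclic AMP response, averaged 117 ± 0.365 CPM in Nr4a1-OV and 32.1 ± 1.11 CPM in RV-GFP, and Pde4d rose by 1.85 on the log2 scale. Prkar2a, a regulatory subunit of protein kinase A, was the gene of this list that fell, by 0.88.

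In ATP and adenosine handling 8 of 23 were higher in Nr4a1-OV and 10 lower. The 4 named by smallest p all fell: the nucleoside transporters Slc29a1 (by 0.93), Slc29a2 (by 1.08) and Slc29a3 (by 1.02), and Adk (by 1.0 on the log2 scale). Of the receptor list 3 of 10 rose and 4 fell, with P2ry10 up by 1.31, P2rx7, the channel opened by high extracellular ATP, up by 2.62, and the UDP-sugar receptor P2ry14 at a log2 fold change of -2.39. P2ry2, which binds ATP and UTP, had a log2 fold change of -2.38. In NAD metabolism 9 of 24 rose and 4 fell. Nmrk1, nicotinamide riboside kinase, averaged 21.7 ± 1.78 CPM in Nr4a1-OV and 6.14 ± 0.897 CPM in RV-GFP, and Parp3, Nadsyn1 and Art4 rose by 1.46, 1.32 and 2.71 on the log2 scale. Of the calcium channels gated by cyclic ADP-ribose or related messengers, 3 of 4 rose (Ryr3, Tpcn1 and Tpcn2, by 3.21, 0.56 and 0.64) and Ryr1 fell by 1.27. Ryr3 remained rare, at 2.78 ± 0.0304 CPM in Nr4a1-OV and 0.294 ± 0.140 CPM in RV-GFP.

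In cultured KO against WT, 20 of 77 listed genes were higher and 18 lower (49.4% called), beside 40.1% called over all genes (18.4% higher, 21.6% lower). Of the receptor list 3 of 10 rose and 2 fell. Adora2b, the low-affinity adenosine receptor, averaged 8.23 ± 1.12 CPM in cultured KO and 2.08 ± 0.448 CPM in cultured WT (log2 fold change 1.98, edgeR adjusted p = 1.46e-08). It remained far below Adora2a in CPM, a scale that does not correct for gene length. P2rx7 was at 0.260 ± 0.207 CPM in cultured KO and 2.11 ± 0.0612 CPM in cultured WT, a log2 fold change of -2.99, and P2ry12, an ADP receptor, rose by 1.65.

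In ATP and adenosine handling 8 of 23 rose and 6 fell in cultured KO. Slc29a1 averaged 159 ± 1.13 CPM in cultured KO and 286 ± 3.82 CPM in cultured WT (edgeR adjusted p = 1.74e-10), Entpd5 fell by 0.55, and Enpp1, an ectoenzyme that hydrolyses ATP to AMP, rose by 0.97 on the log2 scale together with Enpp4, by 0.78. In NAD metabolism 3 of 24 rose and 4 fell, with Nampt, the rate-limiting enzyme of NAD salvage, at 196 ± 7.17 CPM in cultured KO and 152 ± 14.3 CPM in cultured WT. In cyclic AMP signalling 6 of 16 rose and 4 fell. Adcy6 (29.2 ± 0.898 CPM in cultured KO, 11.8 ± 0.214 CPM in cultured WT) and Crem rose here too, by 1.31 and 0.62 on the log2 scale, and Adcy7 fell by 0.41. Of the calcium channels none of 4 rose, and Tpcn1 and Tpcn2 fell by 0.34 and 0.35.

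**Figure D4:**
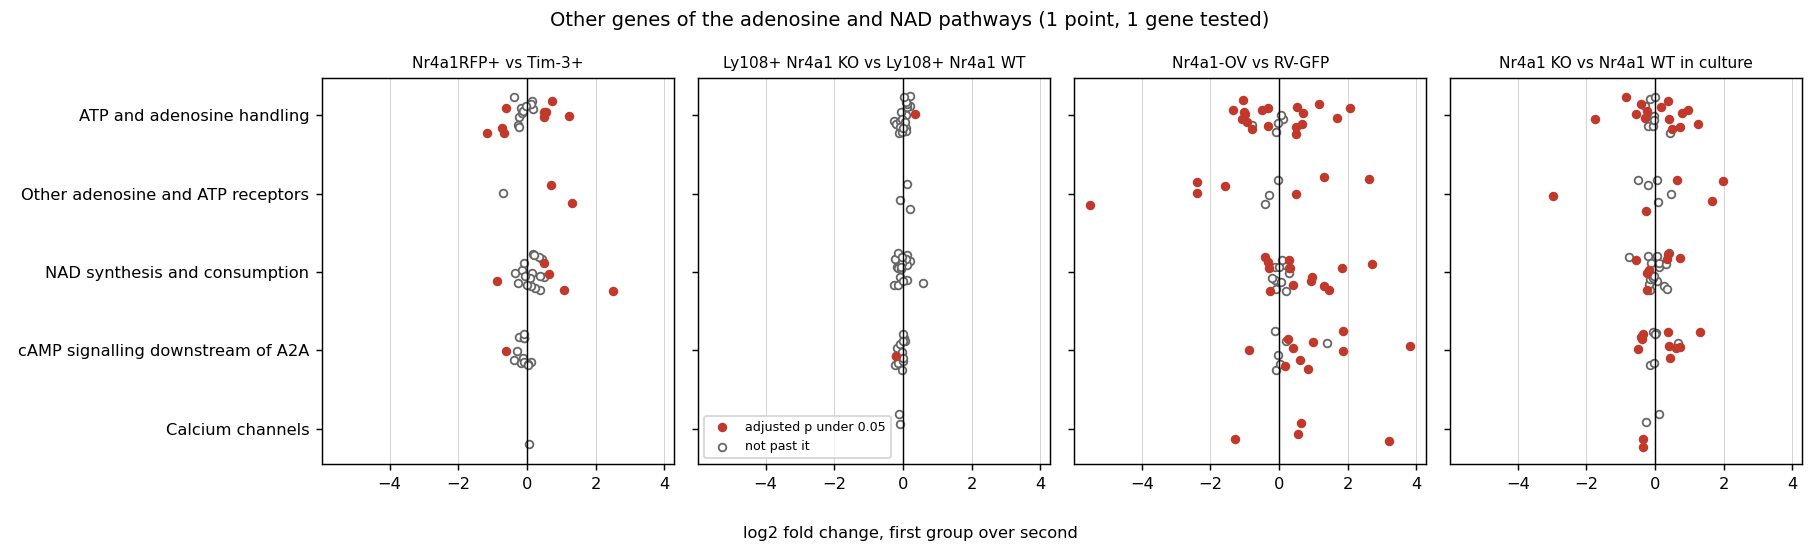
Log2 fold change (first group over second) of each other gene tested in the 5 adenosine and NAD lists, 1 point a gene, in 4 comparisons; red points passed an adjusted p of 0.05 over all genes tested. The Ly108+ panel holds 2 red points of 58, and the Nr4a1-OV panel 52 of 77.

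Genes whose levels over the 18 libraries were most like those of each member were ranked by Pearson's r of log2 RPKM after centring within each table, over 8397 genes. The libraries share groups and tables, so r is a description. Entpd1 was most like Anxa6 (r = 0.942), Med7 (0.942) and Sema4a (0.930). Nt5e was most like Bphl (0.978), Pecam1 (0.976) and Decr1 (0.967), and Cd38 like Capn2 (0.964), Ctsd (0.958) and Tmem30a (0.952). Bst1 was most like Rnf157 (0.989), Tasp1 (0.964) and Il18 (0.950), and Adora2a like Ipo4 (0.984), Atad3a (0.981) and Slc7a6 (0.979). No member was among the 3 most like another. Between members, Cd38 and Adora2a had the lowest r (-0.800), Nt5e and Adora2a had -0.668, and Entpd1 and Cd38 had the highest, 0.623.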

How the data were processed

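Sorted and cultured mouse CD8+ T cells were profiled by RNA sequencing. Per the submitters' processing notes, the authors used Trim Galore, HISAT2, edgeR, DESeq2 and the mm10 build; roles, versions, read counter and annotation are not given in the sources used here. The in vitro table held raw read counts deposited by the authors. RPKM values deposited by the authors were reads scaled by gene length and library size; the tumour tables held RPKM only, and the 3 tables were normalised separately. Columns named Tex were assigned to the Tim-3+ libraries, and 2 further columns of per-sample values were not used.

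The members and lists were chosen with earlier results of these data known. Counts were tested with edgeR 4.0.16 in R 4.3.3 (filterByExpr, TMM, quasi-likelihood, 1 model of the 8 cultured libraries). SEs are the absolute log2 fold change over the square root of F. RPKM were tested with limma 3.58.1 (trend, log2 of RPKM plus a pseudocount of 1, at least 1 RPKM in the number of libraries of the smaller group). Two-sided p-values were adjusted by the Benjamini-Hochberg method over all genes tested, threshold 0.05. As an alternative, whole reads were recovered from tumour RPKM and gene lengths for 88.8% and 95.6% of genes; 97.8% to 98.9% of values under 200 reads were whole within 0.05. Other alternatives included DESeq2 1.42.0, other scalings, filters and pseudocounts, leaving out each library, and a replicate block. Deviations from group means correlated between same-numbered libraries at r = 0.217 (Nr4a1RFP+ and Tim-3+), 0.0509 and 0.0301 (culture pairs), and 0.124, 0.146 and -0.0876 (Ly108+), so numbers were not treated as pairs. No 2 libraries of a group agreed within counting noise. Scripts were tested on simulated counts. Of simulated log2 changes of 0.75, 73% to 89% were recovered, and of changes of 1.5, 91% to 100%. False calls were 9.90% of calls for Nr4a1RFP+ against Tim-3+ and 8.70% for Ly108+ KO against WT. Both are above the share that the threshold of 0.05 aims for. They were 4% for Nr4a1-OV against RV-GFP and 2.87% for cultured KO against WT. Each simulation changed 100 genes by each size, far fewer than were called in culture. In the tumour settings genes of low level were not among those changed. These rates therefore need not hold for the culture comparisons or for genes near 1 RPKM. Besides the members and the group checks (Nr4a1, Slamf6, Havcr2 and Tcf7), named genes were up to 4 per list and comparison past the threshold by smallest p, and the 3 most like each member; marker genes and Fbxl5 were named after their values were seen. Promoters and neighbours are from RefSeq, figures from matplotlib 3.10.9 under Python 3.11.15.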

Additional observations from a re-analysis of the deposited data

Results flagged for a closer look

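Nt5e moved in opposite directions with the KO label in culture and in tumours. Its log2 fold change was -0.66 in culture, where both KO libraries were below both WT libraries, and 0.17 in Ly108+ tumour cells, where all 3 KO libraries were above all 3 WT libraries. The tumour change did not pass its own test (limma adjusted p = 0.132), and the difference between the 2 settings was not tested, since their tables were normalised separately.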

How the results depend on the processing

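Of 316 alternative values for the 5 genes, 300 were counted as the same. For tested genes this meant the same direction and side of the threshold. For Bst1 in tumour cells, which had no main test, it meant a value within the larger group SD of the main log2 difference. With Nr4a1RFP+ set against Tim-3+, 1089 genes passed with a filter at 5 RPKM, and between 723 and 3421 when 1 library was left out, with 928 and 723 without the first and second Nr4a1RFP+ library; Adora2a then lay between 0.41 and 0.52 on the log2 scale. Bst1, untested in the main fits of the tumour tables, had log2 fold changes of 2.90 (Nr4a1RFP+ against Tim-3+, adjusted p = 0.000676) and 0.35 (Ly108+ KO against WT, adjusted p = 0.473) by edgeR on recovered reads. In Ly108+ cells 978 genes passed by edgeR on recovered reads, and 69 to 1686 when 1 library was left out. In culture, leaving out 1 library gave log2 fold changes of -0.36 to 0.40 for Entpd1 in Nr4a1-OV against RV-GFP, with -0.15 without the second RV-GFP library, where the sign was negative, as it was without the first Nr4a1-OV library. It gave -1.53 to -1.09 for Bst1 in Nr4a1-OV against RV-GFP, 0.17 to 0.33 for Adora2a in KO against WT, -1.37 to -0.12 for Bst1 in RV-GFP against WT, and 0.15 to 0.91 for Entpd1 in the Nr4a1-OV change minus the KO change, which passed without the second Nr4a1-OV library (edgeR adjusted p = 0.0433). Entpd1 in KO against WT passed at -0.49 when only the 4 libraries compared were fitted. The cause of these shifts was not tested.

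With replicate numbers as a block, 2143 genes passed between Nr4a1RFP+ and Tim-3+, 485 between Ly108+ KO and WT, 9803 between Nr4a1-OV and RV-GFP, 5871 between cultured KO and WT, 10450 between RV-GFP and WT, and 8793 for the difference of changes. The block changed no call among the 5 genes. Where an arm was left with 1 library, that library was assumed to vary like the other groups. Depth limits Bst1, Cd38 and Entpd1 in the virus-infected cultures: Bst1 rests on 7 to 19 reads a library there, Entpd1 on 23 to 39, and Cd38 in RV-GFP on 13 and 15.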
